A study of Mus musculus with 8 samples.

Results

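The genes described here handle lipid in macrophages and are regulated by, or encode, the liver X receptor (LXR) and the peroxisome proliferator activated receptor gamma (PPARγ). They were taken by name: Nr1h3, Pparg, Abca1, Abcg1, Apoe, Cd36, Fabp4, Lpl, Plin2 and Scarb1, each with every probe set that the platform annotation gives it. This makes 10 genes and 21 probe sets, out of 18193 genes and 45037 probe sets without controls. RNA was measured on Affymetrix mouse arrays in peritoneal macrophages of male C57BL6/J mice. The cells had been drawn into the peritoneum by 3% aged Brewer's thioglycolate, a sterile irritant, collected on day 4, placed in medium with 10% FBS and kept by their adherence. Control cells carried the genotype MR fl / fl, in which the mineralocorticoid receptor gene is flanked by loxP sites but intact. Knockout cells carried MR fl / fl, LysM cre, in which Cre from the lysozyme M locus removes the floxed segment in myeloid cells. Both genotypes therefore share the floxed allele, and no group carried the Cre without it. Cells of each genotype stood for 24 h without hormone or with 1 µM corticosterone, the main glucocorticoid of mice, which also binds the mineralocorticoid receptor. This gives 4 groups of 2 arrays. The submitters pooled triplicate experiments into each sample. What the p-values weigh is therefore scatter among such pools, possibly technical, and few arrays mean low precision. The age of the mice was not given in the sources used here.

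LXRα, the product of Nr1h3, is a nuclear receptor that binds oxysterols and pairs with a retinoid X receptor. When cholesterol builds up in a macrophage it switches on genes that export it, among them Abca1, Abcg1 and Apoe. PPARγ binds fatty acids and their derivatives, also as a partner of a retinoid X receptor, and is known for switching on genes of fatty acid uptake, binding and storage such as Cd36, Fabp4 and Plin2.

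Values are log2 levels made comparable between arrays by RMA, so a difference of 1 is a doubling. They compare 1 probe set across arrays and not one gene with another. Control untreated replicate 2 stood apart. It correlated with its fellow arrays at a median of 0.919, where each remaining array reached 0.994 to 0.995. Its actin probe sets differed by 2.18 log2 units between the 3′ and 5′ ends of the transcript, against 0.41 to 0.62 elsewhere, a measure that rises as RNA is shortened. Of the 21 probe sets, 18 (85.7%) lay below the range of the other 7 arrays on it, against 62% of all probe sets with a mean of at least 6. The results below therefore come from a fit of the other 7 arrays, with the fit of all 8 beside them. With 7 arrays, untreated control cells are represented by 1 array, and their scatter is assumed equal to that in the remaining groups. The deleted gene, Nr3c2, read 6.39 in untreated control cells (8.46 on the array left out), 6.39 and 6.13 in control cells with hormone, 5.54 and 5.82 in untreated knockout cells, and 5.11 and 5.47 in knockout cells with hormone. Its difference with genotype passed limma's test with corticosterone (-0.97, SE 0.17, adjusted p = 0.0369) and not without (-0.71, SE 0.21, adjusted p = 0.194), and whether the probe set lies in the deleted segment was not tested. Defining macrophage genes had high levels on the 7 arrays, with Csf1r at 13.52 to 13.59, Adgre1 at 12.54 to 12.75, Lyz2 at 13.58 to 13.66 and Cd68 at 13.68 to 13.72. In bulk RNA, fewer cells of a type and less RNA per cell cannot be told apart.

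Of the genes that rose with hormone in both genotypes Nr1h3, Abca1 and Apoe have promoter sequences in the RefSeq table used here (GRCm38.p6), shown because these genes moved together. For each, the 250 bases before the most upstream start among its promoter windows follow, on the minus strand. The annotated spans of these genes begin further upstream, at 91202829 for Nr1h3, 53159988 for Abca1 and 19701310 for Apoe. Capitals mark matches to 3 motifs: the GC box, spelled GGGCGG, then the half-site bound by corticosteroid receptors, spelled AGAACA, and last the TATA motif, spelled TATAAA.
Nr1h3, chr2:91195117-91195366: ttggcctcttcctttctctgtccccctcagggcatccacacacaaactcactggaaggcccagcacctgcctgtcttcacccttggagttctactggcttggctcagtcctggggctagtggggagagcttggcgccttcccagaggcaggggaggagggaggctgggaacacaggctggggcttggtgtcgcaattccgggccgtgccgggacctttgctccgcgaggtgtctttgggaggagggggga
Abca1, chr4:53159896-53160145: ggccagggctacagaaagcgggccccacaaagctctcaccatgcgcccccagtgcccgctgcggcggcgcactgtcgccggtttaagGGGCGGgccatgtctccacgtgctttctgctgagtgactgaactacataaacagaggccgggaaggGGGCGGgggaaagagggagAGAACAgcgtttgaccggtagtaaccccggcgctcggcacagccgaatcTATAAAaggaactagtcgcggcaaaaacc
Apoe, chr7:19699189-19699438: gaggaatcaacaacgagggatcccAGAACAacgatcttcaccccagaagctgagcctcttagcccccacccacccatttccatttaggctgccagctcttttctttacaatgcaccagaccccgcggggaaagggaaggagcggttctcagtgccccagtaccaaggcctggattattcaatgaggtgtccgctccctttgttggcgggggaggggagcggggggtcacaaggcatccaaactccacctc
The Abca1 promoter held 2 GC boxes, 163 and 97 bases before the start, 1 half-site 78 bases before it and 1 TATA motif 29 bases before it. The Apoe stretch printed held 1 half-site 226 bases before the start, and its 300-base window, which runs 50 bases past the start, held a second one, while the Nr1h3 stretch held none of these 3 motifs. Over all 32851 promoter windows of 300 bases, read on both strands, the corticosteroid half-site was present in 19%, the GC box in 35.7% and the TATA motif in 13.6%. The half-site of nuclear receptors, AGGTCA, was present in 16.3% of all windows and, among the members, in windows of Pparg, Cd36 and Plin2. A direct repeat of that half-site with 4 bases between, the usual LXR element, was in 0.0152% of windows, and with 1 base between, the usual PPAR element, in 0.0396%. The full corticosteroid receptor element was in 0.00913%. None of these 3 was found in the 11 windows of the 6 member genes. Each search allowed no mismatch, so elements spelled otherwise would be missed. These matches describe letters and not binding.

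With corticosterone the efflux genes split on the 7 arrays. Abca1 and Apoe rose in both genotypes while Abcg1 fell, though with 8 arrays its change in control cells was 0.16. Nr1h3 and the fatty acid binding protein gene Fabp4 rose in both genotypes. Pparg fell and Plin2 rose with a passed test in knockout cells. Cd36, Lpl and Scarb1 passed in neither. In control cells 5 of the 10 genes were called by limma at an adjusted p under 0.05 (4 higher, 1 lower), where 9.56% of all genes were called (4.34% higher, 5.22% lower) and 18.3% of the 5128 genes at least as bright as the dimmest member. In knockout cells 7 were called (5 higher, 2 lower), against 12.5% of all genes (5.20% higher, 7.27% lower) and 22.2% of the equally bright ones. By probe set, 8 of 21 were called in control cells (6.79% of all probe sets) and 10 of 21 in knockout cells (9.14%). The median change of the 10 genes was 0.0855 log2 units in control and 0.105 in knockout cells, against -0.0046 and -0.0185 over all genes. With all 8 arrays limma called 0 of the 10 genes in either genotype, with 4 at an unadjusted p under 0.05 in control and 1 in knockout cells, where 0.115% and 0.0989% of all genes were called and 8.51% and 4.39% were at an unadjusted p under 0.05. Without a trend of the variance on the level, no call for a member passed in any comparison (adjusted p from 0.0551 to 0.510).

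**Figure D1:**
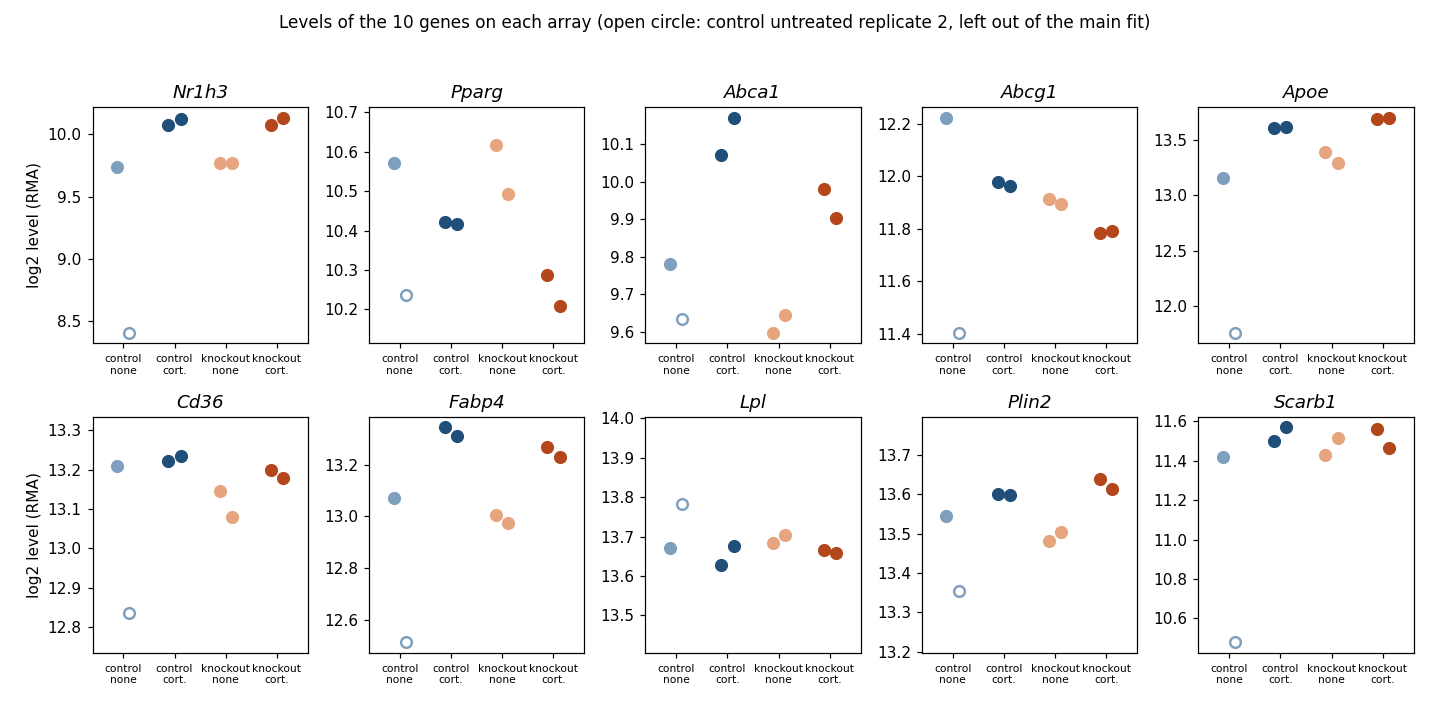
Level of each of the 10 genes (log2, RMA, brightest probe set) on each of the 8 arrays, by genotype (control, knockout) and hormone (none, corticosterone); each point is 1 array and the open circle is control untreated replicate 2. In Nr1h3, Abca1, Apoe, Cd36, Fabp4 and Plin2 both arrays with hormone lie above the untreated ones of the same genotype. Abcg1 and Pparg show the reverse on the 7 filled points. The share of all genes that separate in this way was not counted, and Cd36 was not called.

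Nr1h3 was 9.73 in untreated control cells and 10.07 and 10.13 with hormone. Untreated knockout cells read 9.77 on both arrays, and 10.07 and 10.13 with hormone. The 4 arrays with hormone were thus all above the 3 without. The share of all genes whose groups separate in this way was not counted, here or for the genes below. Cd36, which was not called, also had treated arrays above untreated ones in each genotype. The rise was 0.37 (SE 0.060, adjusted p = 0.00511) in control and 0.33 (SE 0.049, adjusted p = 0.00199) in knockout cells, or 1.29-fold and 1.26-fold. Array control untreated replicate 2 read 8.41, and with it the change in control cells was 1.03 (adjusted p = 0.447). Without control corticosterone replicate 2 the adjusted p in control cells was 0.0578.

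Pparg was 10.57 in untreated control cells and 10.42 on both control arrays with hormone. Untreated knockout cells read 10.62 and 10.49 and treated ones 10.29 and 10.21. On the 7 arrays treated knockout cells were the lowest group, below both control arrays with hormone. The decrease in knockout cells was -0.31 (SE 0.053, adjusted p = 0.00495), or 0.808 times. The change in control cells was -0.15 (SE 0.065, 95% interval -0.30 to -0.0090), which did not pass after adjustment (adjusted p = 0.242). Without knockout corticosterone replicate 2 the call in knockout cells was lost (adjusted p = 0.064). With the eighth array, at 10.24, the value in control cells was 0.014.

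Abca1 encodes the transporter that loads cholesterol and phospholipid onto lipid-poor apolipoprotein A-I. Its brightest probe set was 9.78 in untreated control cells and 10.07 and 10.17 with hormone. In knockout cells it was 9.60 and 9.65 without and 9.98 and 9.90 with hormone. On the 7 arrays, treated ones lay above untreated ones, and within each treatment the knockout arrays lay below the control ones. The rise was 0.34 (SE 0.068, adjusted p = 0.0147) in control and 0.32 (SE 0.056, adjusted p = 0.00512) in knockout cells. The other 2 probe sets, at 3.78 to 5.47 on the 7 arrays, passed in neither, and the mean of the 3 probe sets did not pass either (adjusted p = 0.372 and 0.284). The array left out read 9.63, and with it the change in control cells was 0.42 (adjusted p = 0.447). Leaving out control corticosterone replicate 2 gave an adjusted p of 0.123 in control cells, and leaving out knockout corticosterone replicate 1 gave 0.0605 in knockout cells.

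Abcg1 encodes the transporter that passes cholesterol to mature high density lipoprotein. It was 12.22 in untreated control cells, 11.98 and 11.96 in control cells with hormone, 11.91 and 11.89 in untreated knockout cells, and 11.78 and 11.79 in knockout cells with hormone. On these 7 arrays the 4 groups did not overlap, with untreated control cells highest and treated knockout cells lowest. The decrease with hormone was -0.25 (SE 0.034, adjusted p = 0.00162) in control cells. In knockout cells it was -0.11 (SE 0.028, adjusted p = 0.0311). The second probe set changed by -0.38 (SE 0.14, adjusted p = 0.179) and -0.27 (SE 0.11, adjusted p = 0.214), in the same direction without passing. The direction in control cells rests on the array left out: it read 11.40, the lowest of all, and with it the change was 0.16 (adjusted p = 0.714). In knockout cells the call was also lost with only the arrays compared in the fit (adjusted p = 0.0685) and on leaving out 5 of the arrays in turn: either control corticosterone array (adjusted p = 0.063 each), knockout untreated replicate 1 (0.0743) or either knockout corticosterone array (0.185 and 0.172).

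Apoe encodes the apolipoprotein that macrophages secrete as a cholesterol acceptor. It was 13.16 in untreated control cells and 13.61 and 13.62 with hormone, and in knockout cells 13.40 and 13.29 without and 13.69 and 13.70 with hormone. Treated arrays were again all above untreated ones. The rise was 0.46 (SE 0.037, adjusted p = 5.88e-05) in control and 0.35 (SE 0.030, adjusted p = 5.4e-05) in knockout cells. The array left out read 11.76, and with it the change in control cells was 1.16 (adjusted p = 0.447).

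Cd36, a scavenger receptor that takes up oxidised lipoprotein and fatty acids, spanned 0.155 log2 units over the 7 arrays. It was 13.21 in untreated control cells and 13.22 and 13.23 with hormone, and 13.14 and 13.08 in untreated knockout cells and 13.20 and 13.18 with hormone. The change was 0.018 (95% interval -0.052 to 0.088, adjusted p = 0.859) in control and 0.077 (0.019 to 0.13, adjusted p = 0.109) in knockout cells. The untreated knockout arrays were the lowest of the 7. Its other 2 probe sets changed by -0.077 and 0.029 in control and by 0.034 and 0.048 in knockout cells, and none passed. Without knockout untreated replicate 1 the brightest probe set passed limma's test in knockout cells with hormone (0.11, adjusted p = 0.0192) and with genotype without hormone (-0.13, adjusted p = 0.0491).

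Scarb1, the receptor for high density lipoprotein, was 11.42 in untreated control cells and 11.50 and 11.57 with hormone. In knockout cells it was 11.43 and 11.52 without and 11.56 and 11.47 with hormone, so the knockout groups overlapped. The changes were 0.12 (95% interval -0.0070 to 0.24, adjusted p = 0.31) and 0.039 (-0.063 to 0.14, adjusted p = 0.727). None of its 3 probe sets passed in either genotype.

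Lpl, the secreted lipase that frees fatty acids from lipoprotein triglyceride, spanned 0.0781 log2 units by its brightest probe set and 0.162 by its second. It was 13.67 in untreated control cells and 13.63 and 13.68 with hormone, and 13.68 and 13.70 in untreated knockout cells and 13.67 and 13.66 with hormone. The changes were -0.019 (95% interval -0.079 to 0.040, adjusted p = 0.803) in control and -0.032 (-0.081 to 0.016, adjusted p = 0.475) in knockout cells. Its second probe set changed by -0.096 and -0.066 (adjusted p = 0.0974 and 0.142). The highest value of any probe set on the 7 arrays was 14.26, and 413 of 45037 probe sets had a mean above 13. Lpl, Cd36, Apoe, Fabp4 and Plin2 have probe sets among them, and whether levels this high still follow the RNA in proportion was not tested.

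Plin2 encodes the coat protein of lipid droplets. It was 13.55 in untreated control cells and 13.60 on both treated control arrays, and 13.48 and 13.50 in untreated knockout cells and 13.64 and 13.61 in treated ones. Treated arrays were above untreated arrays in both genotypes. The rise passed in knockout cells (0.13, SE 0.020, adjusted p = 0.0019), or 1.1-fold. The change in control cells was 0.054 (SE 0.024, adjusted p = 0.28).

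Fabp4 encodes a fatty acid binding protein of macrophages and adipocytes, and all 4 of its probe sets rose in both genotypes. The brightest was 13.07 in untreated control cells, 13.34 and 13.31 with hormone, 13.01 and 12.98 in untreated knockout cells and 13.27 and 13.23 with hormone. Its rise was 0.26 in control (SE 0.030, adjusted p = 0.000554) and 0.26 in knockout cells (SE 0.024, adjusted p = 0.000102). With all 8 arrays the rise in control cells was 0.54 (adjusted p = 0.447). The probe sets differed in the size of the rise. The second brightest gave 0.31 and 0.29. Another went from 7.97 to 8.79 and 9.04 in control cells, and from 7.80 and 7.61 to 8.64 and 8.69 in knockout cells. That is a rise of 0.95 (SE 0.12, adjusted p = 0.00124) and 0.96 (SE 0.10, adjusted p = 0.000221). The fourth rose by 1.03 (SE 0.16, adjusted p = 0.00415) and 1.11 (SE 0.13, adjusted p = 0.00052), or 2.04-fold and 2.17-fold. Fabp4 is also abundant in adipocytes and endothelium. The 8 adipocyte markers measured were low, averaging 3.76 to 3.92 log2 units on the 7 arrays, with Adipoq at 3.22 to 3.71, and none was called in any comparison. The 10 endothelial markers averaged 4.67 to 5.02 log2 units on the 7 arrays, and their summed level was 9.33 to 9.76. Of these, 0 were called in control cells and 2 were lower in knockout cells with hormone.

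**Figure D2:**
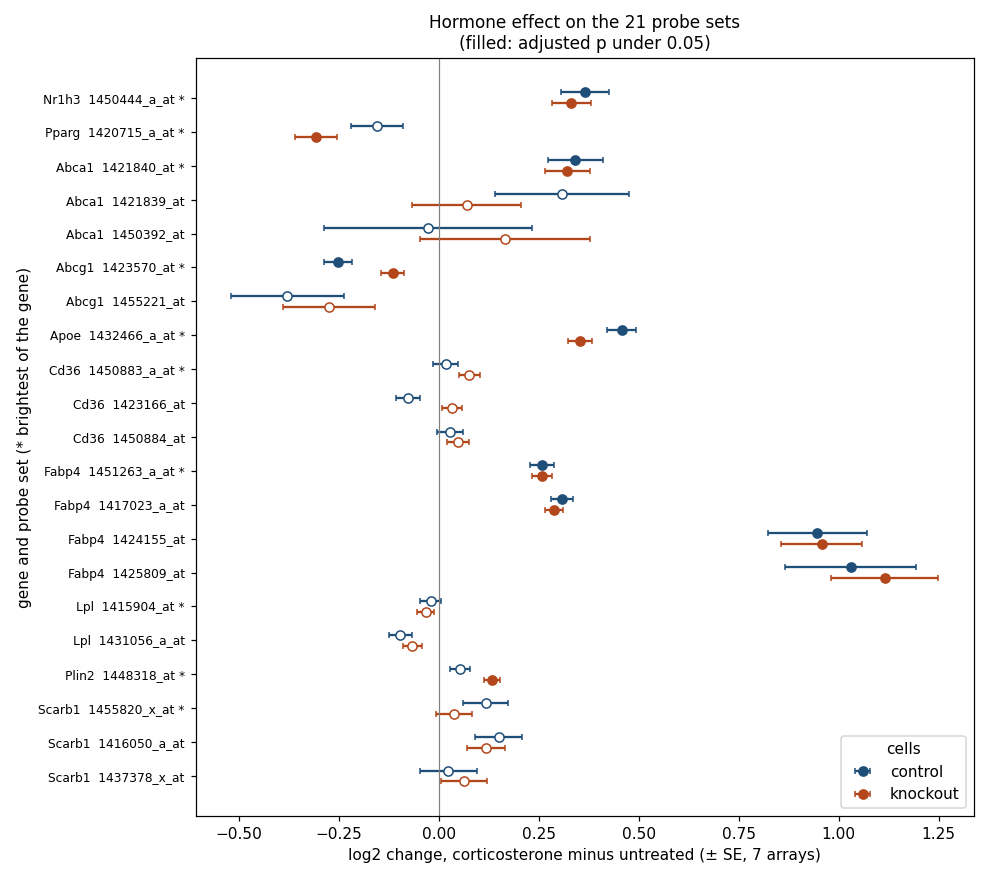
Log2 change with corticosterone (points) with its standard error (bars) for each of the 21 probe sets in control and knockout cells, from the 7-array limma fit; filled points had an adjusted p under 0.05. The 4 Fabp4 probe sets lie to the right of 0 in both genotypes, with changes from 0.26 to 1.11, and both Abcg1 probe sets lie to the left.

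The genotype comparison asks whether these genes differ when the mineralocorticoid receptor gene is deleted. Abcg1 was lower in knockout cells and was the 1 member called. Its difference was -0.32 without hormone (SE 0.034, adjusted p = 0.00197), or 0.801 times. With corticosterone it was -0.18 (SE 0.028, adjusted p = 0.0156), or 0.881 times. So 1 of 10 genes was called in each state, where 1.58% of all genes were called without hormone and 1.31% with it (2.26% and 1.25% of equally bright genes). Of all genes 0.396% and 0.253% were called lower. Beside this, 3 of 11 cell cycle markers were higher in knockout cells without hormone and 7 with it. Their median difference without hormone was 0.67 with 7 arrays but -0.29 with 8 arrays, where none was called. Of 9 macrophage markers 1, Cd14, was higher in both states (0.28 and 0.16), while the medians of that list were -0.023 and -0.0018. Of 8 B cell markers 1, Cd79a, was higher without hormone (0.51) and none with it. The part of these markers in the Abcg1 difference was not tested. At an unadjusted p under 0.05 there were 5 of the 10 genes in each state, against 14.1% and 9.67% of all genes (20.4% and 11% of equally bright genes). The second Abcg1 probe set differed by -0.53 (SE 0.14, adjusted p = 0.152) without and -0.42 (SE 0.11, adjusted p = 0.237) with hormone.

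The calls for Abcg1 depended on single arrays and on the fit. With only the arrays compared, the adjusted p without hormone was 0.103. With control untreated replicate 2 the difference without hormone was 0.090 (adjusted p = 0.844), of opposite sign. With corticosterone, where that array does not enter the difference, the value stayed at -0.18 but the larger spread of the 8-array fit gave an adjusted p of 1. That call was also lost on leaving out any of its own 4 arrays (adjusted p from 0.141 to 0.231). With 8 arrays limma called 0 of the 10 genes in either state, also 0 at an unadjusted p under 0.05.

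Among the other members, Apoe was 0.19 higher in untreated knockout cells (SE 0.037), just short of the threshold (adjusted p = 0.0512), and 0.082 higher with hormone (adjusted p = 0.476). The call for Apoe without hormone was gained on leaving out either knockout untreated array (adjusted p = 0.0293 and 0.0018). Abca1 differed by -0.16 without (adjusted p = 0.384) and -0.18 with hormone (adjusted p = 0.341). Pparg differed by -0.018 without (95% interval -0.16 to 0.13) and -0.17 with hormone (-0.29 to -0.052, adjusted p = 0.338). Nr1h3 differed by 0.035 (-0.10 to 0.17) and 0.0016 (-0.11 to 0.11). Cd36 read -0.099 and -0.040, Fabp4 -0.079 in both states, Plin2 -0.052 and 0.028, Lpl 0.024 and 0.011, and Scarb1 0.056 and -0.023, with no call among them.

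**Figure D3:**
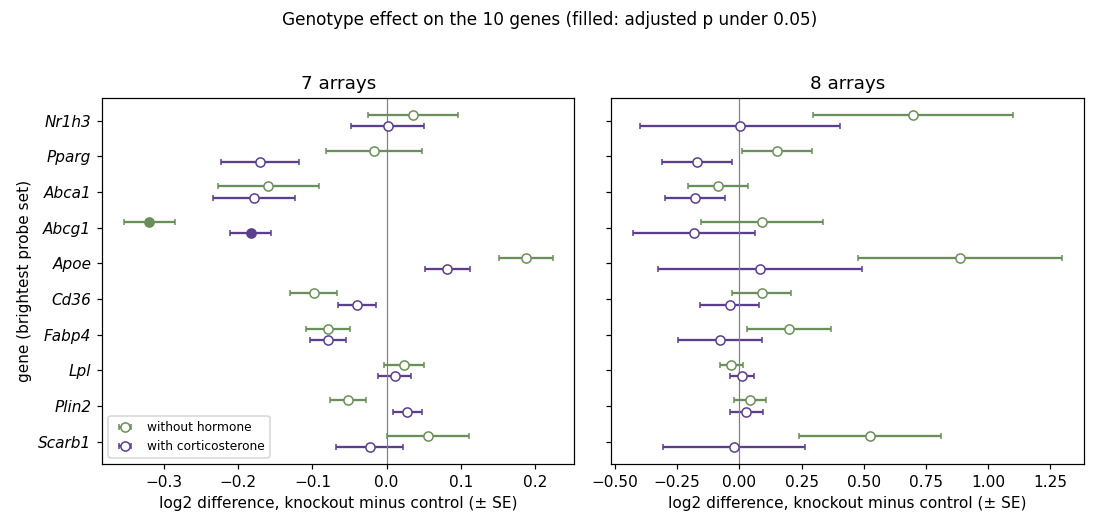
Log2 difference between knockout and control cells (points) with its standard error (bars) for the 10 genes without hormone and with corticosterone, from the fit of 7 arrays (left) and of all 8 (right, on a wider axis); filled points had an adjusted p under 0.05. Abcg1 is at -0.32 and -0.18 on the left, and its value without hormone is 0.090 on the right.

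The interaction asks whether the hormone response itself differs between genotypes. No member passed: limma called 0 of 10 genes, 2 at an unadjusted p under 0.05, where 0.0165% of all genes were called and 5.65% were at an unadjusted p under 0.05. With 8 arrays it called 0, also 0 at an unadjusted p under 0.05. With 7 arrays the largest was Pparg at -0.15 (95% interval -0.34 to 0.035, adjusted p = 0.907). By limma's test, the interaction of Abcg1 was 0.14 (0.037 to 0.24, adjusted p = 0.869) and that of Plin2 was 0.080 (0.010 to 0.15, adjusted p = 0.872). For Fabp4 the interval of the difference ran from -0.085 to 0.086, for Nr1h3 from -0.21 to 0.14 and for Abca1 from -0.22 to 0.18. For Pparg and Plin2, called in knockout cells alone, a difference between genotypes was therefore not shown. The sign of the hormone change was the same in both genotypes for 10 of 10 genes, against 67.1% of all genes and 78.2% of equally bright ones. The 8-array fit gave 8 of 10, against 58.7% of all genes.

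The 10 genes were read beside 9 lists of the same pathways, which hold 88 measured genes besides the members. With hormone 13 of the 88 rose and 18 fell in control cells, and 15 rose and 18 fell in knockout cells. That is 35.2% and 37.5% called, beside the 9.56% and 12.5% of all genes given above, for lists chosen with earlier results known. Of the genes at least as bright as the dimmest member 18.3% and 22.2% were called, though some list genes are dimmer. With genotype 9 were higher and 1 lower in knockout cells without hormone, and 6 were higher and 1 lower with it. That is 11.4% and 7.95% called, beside 1.58% and 1.31% of all genes and 2.26% and 1.25% of those brighter genes. None passed for the interaction, and with 8 arrays none passed in any comparison. Of the 31 called with hormone in control cells, 8 had the opposite sign with 8 arrays: Acaca (0.065), Ch25h (0.15), Cpt1a (0.15), Lipa (0.16), Lpcat3 (0.39), Olr1 (0.36), Osbpl8 (0.084) and Srebf2 (0.11). The 10 called with genotype without hormone kept their sign. For hormone in knockout cells and genotype with corticosterone the added array does not enter the difference, so no sign could change.

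Of 5 measured partners and cofactors of LXR, 1 rose in control cells and 2 in knockout cells. Rxra, the retinoid X receptor that pairs with both LXR and PPARγ, rose by 0.33 (SE 0.039, adjusted p = 0.000707) in control and 0.20 (SE 0.032, adjusted p = 0.00282) in knockout cells. Ncoa1, a coactivator, rose by 0.21 in knockout cells (adjusted p = 0.00541). Of 7 genes for PPAR receptors and coactivators, Rxra rose and Ppargc1b, a coactivator of oxidative metabolism, fell by 0.87 in control (adjusted p = 0.00239) and 0.57 in knockout cells (adjusted p = 0.00616).

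Of 14 other LXR targets 4 rose and 5 fell with hormone in each genotype. Those that rose included the apolipoprotein genes next to Apoe in the gene table. Apoc2, the activator of lipoprotein lipase, was 10.59 in untreated control cells, 11.83 and 11.79 with hormone, 11.18 and 11.07 in untreated knockout cells and 12.18 and 12.20 with hormone. It rose by 1.22 (SE 0.050, adjusted p = 6.49e-07) in control and 1.06 (SE 0.041, adjusted p = 2.51e-07) in knockout cells. Apoc4 was 4.41 in untreated control cells, 6.35 and 6.33 with hormone, 5.74 on both untreated knockout arrays, and 7.50 and 7.58 with hormone. It rose by 1.93 (SE 0.14) and 1.79 (SE 0.12). Both also differed with genotype, and their 4 groups did not overlap on the 7 arrays. Apoc2 was 0.54 higher in knockout cells without hormone (adjusted p = 0.000748) and 0.38 higher with it (adjusted p = 0.00163). Apoc4 was 1.33 higher (adjusted p = 0.00196) and 1.20 higher (adjusted p = 0.000845). Apoc1, the fourth gene of this cluster, was chosen after its values were seen. It rose by 1.02 (adjusted p = 0.00676) and 0.63 (adjusted p = 0.0226) with hormone and was not called with genotype. The gene table also holds a model that spans Apoc2 and Apoc4, so their signals may overlap. With 8 arrays none of these genes passed.

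Of the 5 LXR targets that fell in each genotype, 4 were the same genes of fatty acid synthesis. Fasn, fatty acid synthase, was 9.35 in untreated control cells, 8.70 and 8.74 with hormone, 9.40 and 9.43 in untreated knockout cells and 8.75 and 8.72 with hormone. It fell by 0.63 (SE 0.073, adjusted p = 0.000566) in control and 0.68 (SE 0.059, adjusted p = 6.22e-05) in knockout cells. Scd2, a fatty acid desaturase, fell by 0.63 (adjusted p = 3.09e-05) and 0.51 (adjusted p = 2.21e-05). Scd1 and Acaca, chosen after their values were seen, fell by 0.37 and 0.54 in control and by 0.44 and 0.57 in knockout cells. The fifth was Lpcat3 in control cells, a phospholipid remodelling enzyme, at -0.28 (adjusted p = 0.036), and Srebf1 in knockout cells, the transcription factor of lipid synthesis, at -0.31 (adjusted p = 0.0404). Cd5l, a secreted macrophage protein, was higher in knockout cells by 0.41 without (adjusted p = 0.0089) and 0.46 with hormone (adjusted p = 0.00115).

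**Figure D4:**
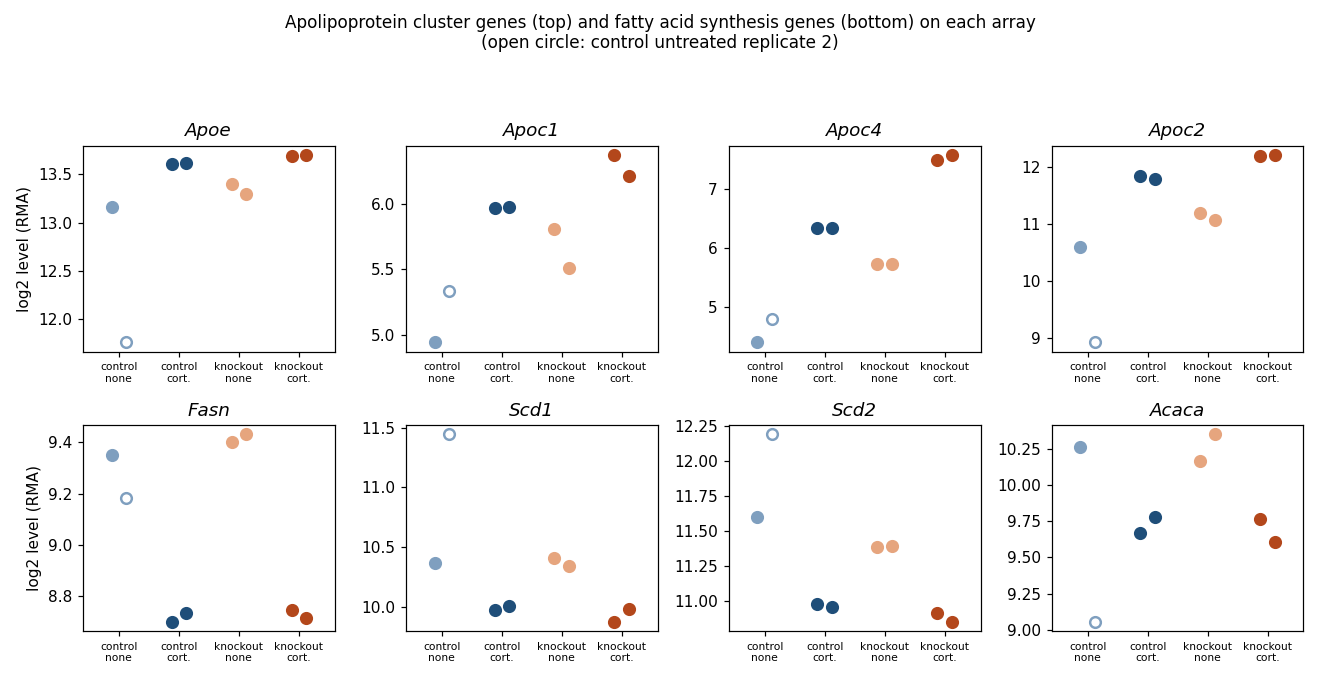
Levels (log2, RMA) on each of the 8 arrays of Apoe and its neighbours Apoc1, Apoc4 and Apoc2 (top) and of the fatty acid synthesis genes Fasn, Scd1, Scd2 and Acaca (bottom), by genotype and hormone; each point is 1 array and the open circle is control untreated replicate 2. On the 7 filled points the upper genes are higher and the lower genes lower with hormone in each genotype. How many of all genes separate in this way was not counted.

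Of 9 other PPAR targets 0 rose, and 2 fell in control and 3 in knockout cells. Angptl4, an inhibitor of lipoprotein lipase, fell by 0.82 (SE 0.12, adjusted p = 0.00311) and 0.87 (SE 0.10, adjusted p = 0.000424). Cpt1a, which admits fatty acids to mitochondria, fell by 0.29 (adjusted p = 0.0291) and 0.22 (adjusted p = 0.0329), and Hadha, an enzyme of fatty acid oxidation, fell by 0.20 in knockout cells (adjusted p = 0.0203). Unlike Fabp4, none of these list genes rose. Pdk4, a kinase that holds back glucose oxidation, was 5.83 in untreated control cells, 6.42 and 6.25 with hormone, 8.73 and 8.97 in untreated knockout cells and 9.14 and 8.83 with hormone. It was 3.02 higher in knockout cells without hormone (SE 0.16, adjusted p = 1.48e-05) and 2.65 higher with it (SE 0.13, adjusted p = 6.13e-06). The array left out read 10.05, above every other array, and with it the difference without hormone was 0.91 with no call.

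Of 11 other lipoprotein and scavenger receptors 2 rose and 3 fell in control cells, and 2 rose and 2 fell in knockout cells. Stab1, an endocytic scavenger receptor, rose by 1.21 (adjusted p = 4.69e-07) and 1.02 (adjusted p = 2.25e-07). Olr1, a receptor for oxidised lipoprotein, fell by 1.03 (adjusted p = 0.000344) and 1.07 (adjusted p = 4.86e-05). Marco, a scavenger receptor of macrophages, was higher in knockout cells by 0.82 without (adjusted p = 0.000236) and 0.80 with hormone (adjusted p = 5.34e-05). Cxcl16, a membrane chemokine that binds oxidised lipoprotein, was higher by 0.87 (adjusted p = 7.35e-05) and 0.45 (adjusted p = 0.00109).

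Of 11 other genes of cholesterol efflux and transport 2 rose and 3 fell in control cells, and 3 rose and 2 fell in knockout cells. Npc1, which moves cholesterol out of lysosomes, rose by 0.39 (adjusted p = 0.00173) and 0.37 (adjusted p = 0.000525). Lipa, the lysosomal lipase that frees it, fell by 0.27 (adjusted p = 0.00143) and 0.23 (adjusted p = 0.00083). Ch25h, which makes 25-hydroxycholesterol, a ligand of LXR, fell by 0.67 in control (adjusted p = 0.0441) and 0.95 in knockout cells (adjusted p = 0.0017). It was 0.87 higher in knockout than in control cells without hormone (adjusted p = 0.0497).

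Of 19 other genes of lipid droplets and triglyceride turnover 4 rose and 2 fell in each genotype. Pnpla2, the first lipase of stored triglyceride, rose by 0.51 (adjusted p = 0.000366) and 0.59 (adjusted p = 2.5e-05), while its coactivator Abhd5 fell by 0.38 (adjusted p = 0.000569) and 0.41 (adjusted p = 6.29e-05). Acsl3, an acyl-CoA synthetase of growing droplets, fell by 0.77 in both (adjusted p = 0.000279 and 5.2e-05). Mgll, the last lipase of triglyceride breakdown, differed by -0.74 in knockout cells without hormone (adjusted p = 0.00197) and by -0.81 with it (adjusted p = 0.000239). Of 8 other partners and inhibitors of lipoprotein lipase the 2 that changed with hormone were Apoc2 and Angptl4, already given, beside an Lpl level that did not pass. Of 9 sterol sensing genes 0 rose, 2 fell in control and 4 in knockout cells. Srebf2, the transcription factor of cholesterol synthesis, fell by 0.20 (adjusted p = 0.0412) and 0.29 (adjusted p = 0.00115).

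Some markers of other cells moved with the hormone beside these genes, where 9.56% of all genes were called in control and 12.5% in knockout cells. Of 8 B cell markers 6 fell in control and 5 in knockout cells, and their summed level was 10.89 to 11.34 log2 units on the 3 untreated arrays and 9.63 to 9.84 on the 4 treated ones. Of 8 T and NK cell markers 4 and 5 fell, from 9.94 to 10.08 down to 8.50 to 8.75. Of 9 macrophage markers 3 rose and 1 fell in control cells and 3 rose and 2 fell in knockout cells, with summed levels of 16.12 to 16.14 and 16.17 to 16.19. Of 11 cell cycle markers 8 fell in each genotype. Their summed level was 11.98 in untreated control cells and 11.40 and 11.41 with hormone, and 12.44 and 12.61 in untreated knockout cells and 12.12 and 11.90 with hormone, against 14.00 on the array left out. Of 7 mast cell and basophil markers 2 rose in each genotype, with sums of 9.01 to 9.26 on the 3 untreated arrays and 9.31 to 9.67 on the treated ones. Among 7 neutrophil markers 1 fell in each genotype, among 5 eosinophil markers 1 fell in knockout cells, and of 12 mesothelial and fibroblast markers 1 fell in control and 2 rose in knockout cells. None of 3 erythroid markers was called. Lists with a single call do not stand out from the share of all genes called. The part of these shifts in the members' changes was not tested. On control untreated replicate 2 the endothelial markers summed to 11.32 and the mesothelial and fibroblast markers to 14.86, against at most 9.76 and 12.88 on the other arrays.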

How the data were processed

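RNA was labelled with the NuGen Ovation system and hybridised to Affymetrix arrays, per the labels' protocols. The deposited values are log2 levels that the authors made with RMA in R 2.7, per the submitters' processing notes. RMA aligns the arrays' distributions, which hides any shift in the RNA content of cells. The files give no detection call.

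Of 45101 probe sets 64 were controls. The platform annotation named 1 gene for 34945 of the rest and several for 932, while 9160 stayed unnamed. Through gene identifiers 34741 symbols were matched to the table of GRCm38.p6 with 204 left under an older symbol. Levels of a gene were read from its brightest probe set by the mean of 7 arrays. Array medians lay between 5.55 and 5.58.

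The model, fitted by limma 3.58.1 under R 4.3.3, held a mean for each group, a variance trend and Benjamini-Hochberg adjustment over all 45037 probe sets, called under 0.05. The 7-array fit left 3 residual degrees of freedom and the 8-array fit 4. Alternatives are in the closing section. Intervals are 95%. Figures were drawn with matplotlib 3.10.9 in Python 3.11.15.

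The members, the gene lists and the choice of 7 arrays were made with earlier results of these data known. Of each list up to 4 genes per comparison with the smallest p are named. Genes of similar pattern were to be named for members spanning at least 1 log2 unit over the 7 arrays, and none did. Of 6 member genes 11 promoter windows were found in the RefSeq table of 10 genes sought; promoters of Abcg1, Fabp4, Lpl and Scarb1 were not used here. Deviations of samples with the same replicate number had correlations of 0.0095, 0.034 and -0.177, so the numbers were not taken to pair samples.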

Additional observations from a re-analysis of the deposited data

Results flagged for a closer look

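One member rose above all other arrays on the array left out of the main comparisons. The brightest Lpl probe set read 13.78 on control untreated replicate 2, while the other 7 arrays lay between 13.63 and 13.70. That array lay below the range of the others for 18 of the 21 probe sets and within it for 2. The second Lpl probe set read 13.38 there, below its range of 13.48 to 13.64 elsewhere, so the 2 probe sets of Lpl disagree on this array.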

How the results depend on the processing

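Of 14 gene calls, 14 were kept with robust variances, with probe sets of a mean of at least 6, with 1 probe set per gene and with arrays scaled on the brighter probe sets. With the mean of a gene's probe sets 11 were kept, with the arrays compared alone 12, and with the replicate number as a block 12. The block lost Abca1 in control cells (adjusted p = 0.05) and Abcg1 with hormone in knockout cells (adjusted p = 0.0549) and changed no other call. Without a variance trend 0 were kept (adjusted p = 0.0551 to 0.510). With all 8 arrays, alone or with the replicate block (the latter chosen after seeing the data), 0 were kept. With array weights 6 were kept, all with hormone in knockout cells. The causes were not tested.

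The count of genes called with hormone in control cells, 5, went to 0 with 8 arrays, with array weights, without a trend and with 8 arrays and the block, and ranged from 3 to 5 on leaving out single arrays. In knockout cells the count of 7 went to 0 with 8 arrays, without a trend and with 8 arrays and the block, and ranged from 5 to 7. The count of 1 for genotype without hormone went to 0 under these 4 settings and with the arrays compared alone, to 2 with a mean of at least 6 or 1 probe set per gene, and ranged from 1 to 3. With corticosterone it went to 0 under the same 4 settings and ranged from 0 to 1. The interaction count was 0 throughout.

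Over all genes, the calls with hormone fell from 1739 to 506 in control cells and from 2269 to 884 in knockout cells without a trend, to 21 and 18 with 8 arrays, and to 8 and 1483 with array weights. For genotype they went from 287 to 46 and from 238 to 64 without a trend, and to 0 and 0 with 8 arrays. With the arrays compared alone they were 74 and 359, and with the block 162 and 194.

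Some values changed sign. With 8 arrays, with weights or the block alike, the hormone change in control cells became 0.014 for Pparg and 0.16 for Abcg1. The genotype difference without hormone became 0.15 for Pparg, 0.090 for Abcg1, 0.089 for Cd36, 0.20 for Fabp4, -0.032 for Lpl and 0.043 for Plin2. The interaction became -0.27 for Abcg1, -0.13 for Cd36, -0.28 for Fabp4, 0.042 for Lpl and -0.015 for Plin2. With the mean of probe sets the hormone change of Cd36 in control cells was -0.010, and Lpl read -0.025 and -0.017 for genotype without and with hormone and 0.0084 for the interaction. With the block of replicate numbers Pparg read 0.018 for genotype without hormone and Fabp4 -0.017 for the interaction. With scaled arrays Nr1h3 read -0.0029 for genotype with hormone and Lpl 0.00046 for the interaction. Values without a call also changed sign when single arrays were left out. The hormone change ran from -0.044 to 0.0057 for Lpl in control cells and from -0.0091 to 0.086 for Scarb1 in knockout cells. Genotype without hormone ran from -0.081 to 0.046 for Pparg. Genotype with hormone ran from -0.029 to 0.032 for Nr1h3, -0.014 to 0.036 for Lpl and -0.0705 to 0.025 for Scarb1. The interaction ran from -0.069 to 0.030 for Abca1, -0.019 to 0.020 for Fabp4 and -0.038 to 0.012 for Lpl.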
